A study of Homo sapiens with 12 samples.

Results

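The genes described here are the kinases of the SRC family and their close regulators and substrates: SRC, YES1, FYN, LYN and BLK of the SRC family, SRMS of the related BRK family, the inhibitory kinase CSK, the focal adhesion kinase PTK2 (FAK), its partner BCAR1 (p130Cas) and the adaptor DOK1. They were chosen by name, with earlier results of these data known. Of these, 10 of the 10 were measured, out of 14029 genes in all. The deposited table lists only some of the annotated genes, by a rule that no source used here states, and each of the 10 is in it. RNA came from ES-2, an established human ovarian cancer cell line, and poly(A) RNA was sequenced. In the libraries labelled SRMS shRNA (genotype label SRMS knockdown) the cells carried a short hairpin RNA against SRMS, and in the vector libraries (genotype label WT, titled PLKO) they carried the control vector. Both groups had been given 15 µM cisplatin, a platinum drug that crosslinks DNA, for 8 hours, and each had 3 replicates. The series has 12 samples in 4 groups, and the 6 samples given PBS are not analysed here, so no response to cisplatin was measured. Neither the hairpin's sequence nor the number of hairpins is stated in the labels. Nor is it stated whether the replicates were separate cultures, and a p-value here reflects only how far these 3 samples of a group lie apart, possibly for technical reasons.

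SRC family kinases are membrane-anchored tyrosine kinases with SH3, SH2 and catalytic domains. CSK phosphorylates a tyrosine in their C-terminal tail, which folds the kinase into a closed, inactive form, and phosphatases that remove that phosphate open it again. At integrin adhesions active SRC binds PTK2, and the pair phosphorylates BCAR1, whose phosphorylated form recruits CRK adaptors to drive cell spreading and migration. SRMS belongs to the BRK family and lacks the C-terminal regulatory tyrosine of SRC, and DOK1 is one of its known substrates. Kinase activity is set largely by phosphorylation, and the values below are mRNA levels only.

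The libraries held 28009232 to 38072051 reads in the genes analysed for the 3 labelled SRMS shRNA and 29072793 to 56855428 for the 3 with the vector. Levels are reads scaled to the size of each library as deposited, in the manner of CPM and called scaled reads below, and differences are log2 fold changes of the libraries labelled SRMS shRNA over the vector, on the scale of log2(value + 0.5), tested with limma and adjusted over all 14029 genes at a threshold of 0.05. Median scaling, which aligns the libraries on their median gene, raised the median log2 fold change of all genes by 0.16 and changed the calls to 6254 higher and 2510 lower, against 3736 and 4233 as deposited, so small differences depend on the scaling. The epithelial keratins KRT8, KRT18 and KRT7 and the mesenchymal vimentin (VIM) were high, whereas PAX8, a factor of Müllerian epithelium, lay near 0 (0.241 ± 0.108 scaled reads in the libraries labelled SRMS shRNA and 0.136 ± 0.085 in the vector libraries, SD, n = 3 each), and EPCAM, CDH1 and MUC16 are not among the genes analysed. Of 6 epithelial markers measured 2 rose and 2 fell, and of 6 mesenchymal markers 2 rose and 3 fell, where 26.6% of all genes rose and 30.2% fell. KRT7 (log2 fold change -0.36), WT1 (-0.80), COL1A1 (-0.60), ZEB1 (-0.47) and CDH2 (-0.17) fell. KRT8 (0.18), KRT18 (0.21), FN1 (0.27) and VIM (0.29) rose. WT1, counted with the epithelial markers, had a mean of 1.42 scaled reads in the libraries labelled SRMS shRNA and 2.84 in the vector libraries. The collagen chain COL1A2 lay near 0, at 0 to 5 reads in the libraries labelled SRMS shRNA and 5 to 7 in the vector libraries. Of 7 leukocyte markers 4 were measured and 3 rose. Their summed level was 60.6 to 65.1 scaled reads in the libraries labelled SRMS shRNA and 49.5 to 52.2 in the vector libraries, nearly all of it CD68, a lysosomal protein that other cells also express. The monocyte marker CD14 had 3.24 ± 0.37 scaled reads in the libraries labelled SRMS shRNA and 0.879 ± 0.197 in the vector libraries, a log2 fold change of 1.45 (SD, n = 3 each). LYZ (lysozyme) had 0.419 ± 0.0195 scaled reads in the libraries labelled SRMS shRNA and 0.136 ± 0.0848 in the vector libraries, a log2 fold change of 0.54 (SD, n = 3 each). Of 5 endothelial markers 3 were measured and 1, the junction cadherin CDH5, fell (log2 fold change -1.25). It made up most of the sums of 5.88 to 8.36 scaled reads in the libraries labelled SRMS shRNA and 14.8 to 16.8 in the vector libraries. PECAM1 had 0.393 ± 0.129 scaled reads in the libraries labelled SRMS shRNA and 0.211 ± 0.0387 in the vector libraries, without overlap, and did not pass (limma adjusted p = 0.0745). The markers named here were chosen after their values were seen.

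SRMS, the gene that the hairpin targets, did not fall. It had 0.328, 1.07 and 0.863 scaled reads in the libraries labelled SRMS shRNA, from 9, 39 and 27 reads, against 0.0669, 0.306 and 0.819 in the vector libraries, from 2, 14 and 47 reads. The groups overlapped, and replicate 1 was the lowest of each group. The log2 fold change was 0.52 (95% interval -0.15 to 1.19, limma adjusted p = 0.168), and a two-sided exact permutation test of 3 against 3 values gave p = 0.2, where 0.1 is the smallest it can give. At so few reads the size depends on the pseudocount, being 0.34 with 1 and 0.99 with 0.1 in place of 0.5. When replicate number entered as a block, the limma adjusted p was 0.00782, in the direction of more SRMS. With the length and GC trend also removed it was 0.207, at a log2 fold change of 0.24. Leaving out replicate 1 labelled SRMS shRNA moved it to 0.79 on the log2 scale (limma adjusted p = 0.0245), and it was 0.84 without vector replicate 3 (limma adjusted p = 0.0281), so whether SRMS passed depended on single libraries. The gene lies on the minus strand of chromosome 20, at 63540810 to 63547504 of GRCh38, and its chosen transcript has 1516 nt in 8 exons. An antisense gene, AL121829.2, overlaps 328 bases of it. Since the target gene did not fall, every direction below is that of libraries whose label the target gene did not bear out.

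PTK6 (BRK), a kinase of the same family encoded beside SRMS on chromosome 20, was also at the edge of detection. It had 13, 18 and 13 reads in the libraries labelled SRMS shRNA and 0, 12 and 6 in the vector libraries. The groups did not overlap, and the log2 fold change was 0.65 (SE 0.16, limma adjusted p = 0.00571), a size that depends on the pseudocount at such counts. A count of 0 in vector replicate 1 allows a level of up to 0.1 scaled reads, counting error only. FRK, another relative, had 3 to 4 reads in the libraries labelled SRMS shRNA and 1 to 7 in the vector libraries and did not pass (limma adjusted p = 0.886). FGR and LCK, family members known from blood cells, are not among the genes analysed.

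Sequences just before the annotated gene starts are shown for the 3 members with enough bases there in RefSeq's promoter windows. These are DOK1, which rose, BCAR1, which fell, and FYN, which did not pass the test. RefSeq (GRCh38.p14) had windows for 5 of the 10 members, and those of YES1 and CSK held too few bases before the annotated gene start, or none. The transcripts chosen for length start further inside the gene for DOK1 (at 74554086) and BCAR1 (at 75251609), and at the gene start for FYN. Which start the cells used was not tested. Capitals mark matches, on either strand, to GGGCGG (GC box), CCAAT or TATAAA.
DOK1, chr2:74548855-74549025, plus strand: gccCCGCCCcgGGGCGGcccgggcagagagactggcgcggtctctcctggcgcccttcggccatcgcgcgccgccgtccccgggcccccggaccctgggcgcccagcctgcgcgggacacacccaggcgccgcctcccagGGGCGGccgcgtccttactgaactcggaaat
BCAR1, chr16:75268054-75268257, minus strand: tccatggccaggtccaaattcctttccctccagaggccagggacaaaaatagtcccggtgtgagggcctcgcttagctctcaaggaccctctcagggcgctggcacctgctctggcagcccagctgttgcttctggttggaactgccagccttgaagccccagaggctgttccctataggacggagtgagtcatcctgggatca
FYN, chr6:111873453-111873702, minus strand: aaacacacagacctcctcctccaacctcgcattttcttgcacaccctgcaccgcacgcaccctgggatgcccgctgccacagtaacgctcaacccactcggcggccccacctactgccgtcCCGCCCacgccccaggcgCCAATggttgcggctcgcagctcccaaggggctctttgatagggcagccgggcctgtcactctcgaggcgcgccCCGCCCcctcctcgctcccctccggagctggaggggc
The DOK1 stretch of 171 bases was 78.9% G or C and held 3 GC boxes. Of the 35116 windows, 38.4% hold a GC box in the 171 bases next to the RefSeq start. The BCAR1 stretch of 204 bases, 58.8% G or C, held none of the motifs. A GC box is found in 40.4% of windows in the 204 bases next to the RefSeq start. The DOK1 and BCAR1 stretches begin at the far end of their windows, so these shares match them in length but not in position. The FYN stretch of 250 bases, 68.8% G or C, held 2 GC boxes, found in 42.6% of windows, and 1 CCAAT box, found in 32.0%. These matches describe the letters only.

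Of the 10 genes, 6 passed the test between constructs, where 56.8% of all genes tested did. DOK1, BLK and PTK2 rose and SRC, BCAR1 and CSK fell. The shares of all genes called higher and lower were 26.6% and 30.2%, so 3 of 10 in each direction is close to the background. The same 6 were those whose groups did not overlap, as was true of 62.7% of all genes, 29.7% higher and 32.9% lower. The median log2 fold change was -0.13 over the 10 genes and 0.0031 over all genes. With the replicate block 4 rose and 4 fell, SRMS and YES1 added, where 31.0% and 34.3% of all genes did, 65.3% in all. Median scaling gave 3 higher and 3 lower, where 44.6% and 17.9% of all genes were called, 62.5% in all. With the block and the length and GC trend removed it was 3 and 3, where 28.6% and 32.6% were called, 61.2% in all. With replicates 2 and 3 averaged 5 of 10 passed, PTK2 being lost, where 43.3% of all genes passed. At an absolute log2 fold change of 0.5 or more only SRC passed, where 17.1% of all genes did. In bulk RNA fewer cells with a transcript and less of it per cell cannot be told apart.

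**Figure D1:**
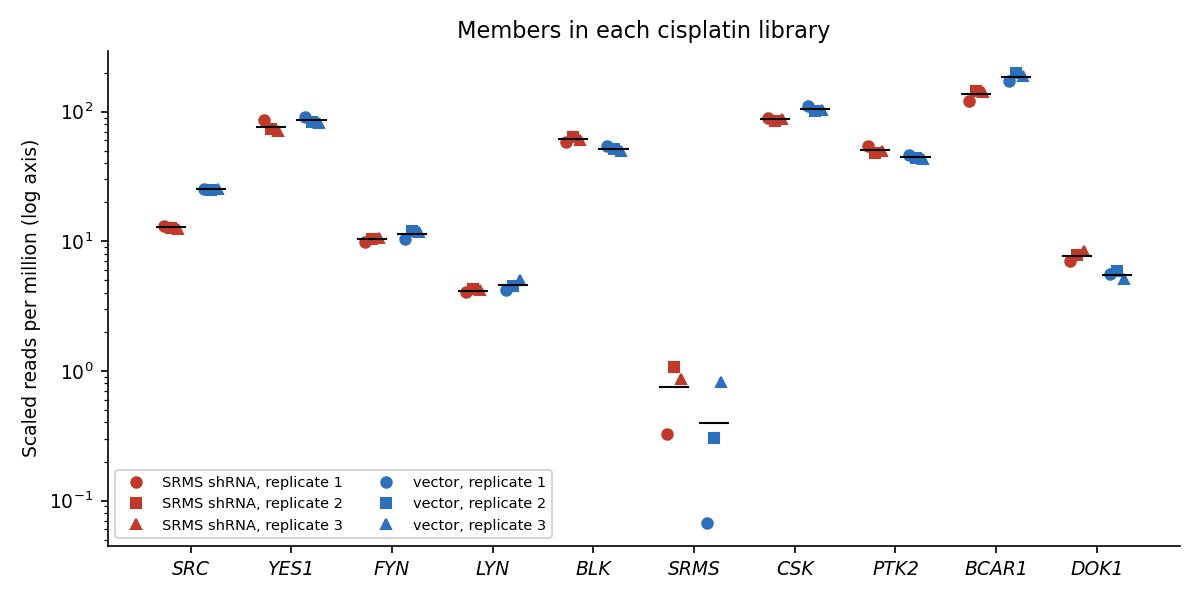
Level of each gene in the 6 cisplatin libraries, in scaled reads on a log axis, with red points for the 3 libraries labelled SRMS shRNA on the left of each pair, blue points for the 3 vector libraries on the right and a black bar at each mean. SRC separates by construct near 12.8 and 25.2 scaled reads with little spread, whereas SRMS lies below 1.1 in every library and overlaps.

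SRC, the founding member of the family, had the largest difference among the 6 that passed. It had 13.1, 12.7 and 12.5 scaled reads in the libraries labelled SRMS shRNA, against 25.5, 24.8 and 25.2 in the vector libraries. All 3 libraries labelled SRMS shRNA lay close together and far below all 3 vector libraries. This was a log2 fold change of -0.95 (SE 0.0562, limma adjusted p = 8.4e-07), and the ratio of means was 0.508. Of all genes tested, 227 had a lower fold change and 2.57% had a larger absolute one. The coefficient of variation between replicates was 2.54% in the libraries labelled SRMS shRNA and 1.34% in the vector libraries, below the 4.97% and 2.99% that read counting alone gives for 360 to 462 and 762 to 1447 reads. SRC lies on the plus strand of chromosome 20, at 37344685 to 37406050, and no annotated gene overlaps it. Across the 19 other settings its log2 fold change lay between -0.97 and -0.79 and passed in each.

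YES1 and FYN, the ubiquitous relatives of SRC, did not pass. YES1 had 85.6, 73.6 and 70.4 scaled reads in the libraries labelled SRMS shRNA, against 90.3, 83.7 and 82.2 in the vector libraries. Replicate 1 was the highest in both groups, and the groups overlapped through it. Its log2 fold change was -0.16 (SE 0.0683, limma adjusted p = 0.066), with lower values in 3 of 3 same-numbered pairs and a limma adjusted p of 0.000148 with the replicate block. Leaving out replicate 1 labelled SRMS shRNA gave -0.24 (limma adjusted p = 0.000718). Median scaling left -0.0011 (limma adjusted p = 0.989) and quantile scaling -0.15 (limma adjusted p = 0.105). It turned to 0.039 once the block was used and the length and GC trend removed (limma adjusted p = 0.262).

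FYN had 9.89, 10.4 and 10.7 scaled reads in the libraries labelled SRMS shRNA, against 10.4, 12.0 and 11.9 in the vector libraries. The groups overlapped, again through replicate 1, here the lowest of each. The log2 fold change was -0.13 (95% interval -0.31 to 0.04, limma adjusted p = 0.171), and median and quantile scaling turned it to 0.025 and 0.017.

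LYN and BLK are best known from blood cells, LYN across myeloid and B cells and BLK in B lymphocytes. LYN had 4.05, 4.26 and 4.19 scaled reads in the libraries labelled SRMS shRNA, against 4.22, 4.52 and 5.02 in the vector libraries. The groups overlapped, and the difference was -0.12 on the log2 scale (95% interval -0.33 to 0.09, limma adjusted p = 0.306). Median scaling turned it to 0.039. BLK had 58.6, 64.1 and 60.5 scaled reads in the libraries labelled SRMS shRNA, against 54.2, 51.4 and 50.1 in the vector libraries. All 3 libraries labelled SRMS shRNA lay above all 3 vector libraries.

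The log2 fold change of BLK was 0.23 (SE 0.0487, limma adjusted p = 0.00222). It was 0.39 with median scaling and 0.14 with the replicate block once a trend on GC content and transcript length was taken out, and it passed in both. The leukocyte markers PTPRC and CD3E are not among the genes analysed. The 3 leukocyte markers that rose were counted above, and their part in the result was not tested. The antisense gene AC022239.1 overlaps 12117 bases of BLK on chromosome 8, at 11552488 to 11564604, and the library kit was stranded, per the labels' protocols, but no source used here states whether the counting used the strand, so reads of the pair may be mixed.

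CSK, the kinase that inhibits the whole family, fell. It had 88.8, 84.9 and 87.6 scaled reads in the libraries labelled SRMS shRNA, against 109.6, 101.0 and 103.7 in the vector libraries. The groups stood apart, each with a spread under 5% (coefficient of variation 2.31% and 4.19%). On the log2 scale the difference was -0.26 (SE 0.0415, limma adjusted p = 0.000365). Median scaling left -0.10 (limma adjusted p = 0.0422), and quantile scaling -0.27 (limma adjusted p = 0.000784). CSK lies on chromosome 15, at 74782057 to 74803198, on the plus strand.

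**Figure D2:**
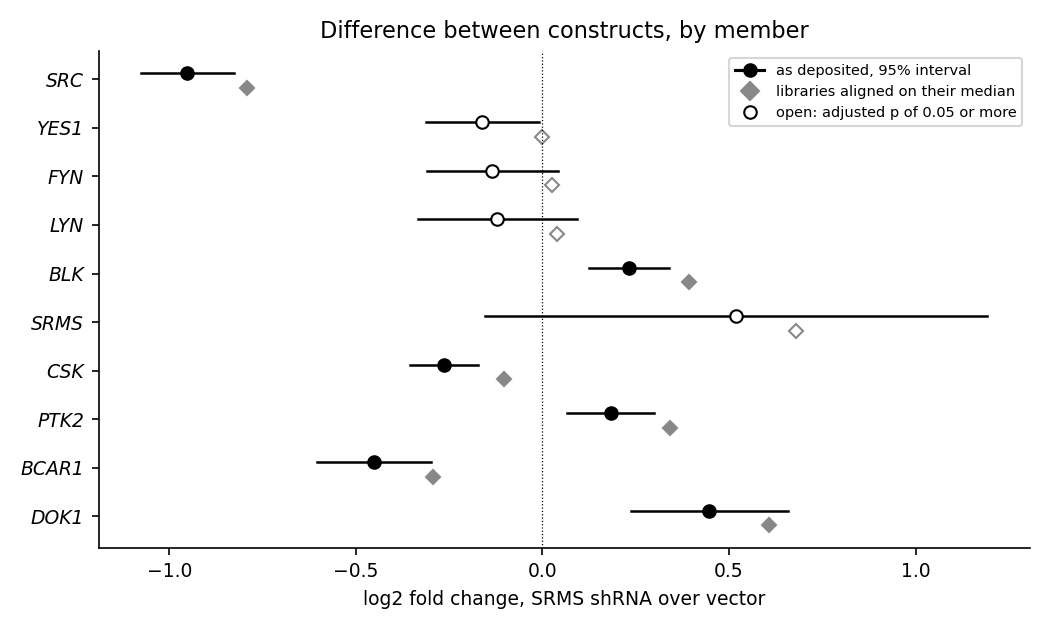
log2 fold change of each gene, libraries labelled SRMS shRNA over vector, as deposited (black circles with 95% intervals) and after median scaling (grey diamonds), with open symbols for an adjusted p of 0.05 or more. Median scaling moves every gene to the right by 0.16, which brings YES1, FYN and LYN to about 0 and leaves SRC at -0.79.

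The mRNAs of the adhesion kinase PTK2 and of its partner BCAR1 differed in opposite directions. PTK2, the focal adhesion kinase, had 54.1, 48.3 and 49.7 scaled reads in the libraries labelled SRMS shRNA, against 46.3, 43.9 and 43.4 in the vector libraries. The groups did not overlap, though replicate 1 was the highest of each. PTK2 had a log2 fold change of 0.18 (SE 0.0526, limma adjusted p = 0.0129). Without vector replicate 3 it was 0.17 (limma adjusted p = 0.0553), and with replicates 2 and 3 averaged 0.19 (limma adjusted p = 0.0608). With median scaling it was 0.34, and 0.36 with the block and the length and GC trend removed.

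BCAR1, the scaffold p130Cas, had 121.6, 143.7 and 141.6 scaled reads in the libraries labelled SRMS shRNA, against 170.8, 197.7 and 188.3 in the vector libraries. All 3 libraries labelled SRMS shRNA lay below all 3 vector libraries, with replicate 1 the lowest of each group. BCAR1 had a log2 fold change of -0.45 (SE 0.0688, limma adjusted p = 0.000296), and -0.29 with median scaling (limma adjusted p = 0.0058). Of all genes tested, 1700 had a lower fold change. BCAR1 lies on the minus strand of chromosome 16, at 75228187 to 75268053.

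DOK1, an adaptor that recruits RAS GTPase-activating protein and dampens RAS signalling, rose. It had 7.01, 7.78 and 8.44 scaled reads in the libraries labelled SRMS shRNA, against 5.62, 5.85 and 5.14 in the vector libraries. The groups did not overlap. DOK1 had a log2 fold change of 0.45 (SE 0.0949, limma adjusted p = 0.0024), and it passed in each of the 19 other settings, from 0.32 to 0.61. DOK1 and LOXL3, a lysyl oxidase relative on the opposite strand, overlap for 6665 bases on chromosome 2, at 74549026 to 74555690. LOXL3 had 24.7 ± 0.976 scaled reads in the libraries labelled SRMS shRNA and 18.0 ± 1.38 in the vector libraries (SD, n = 3 each), a difference of 0.45 on the log2 scale (limma adjusted p = 0.000261), so without strand the difference of DOK1 cannot be told apart from that of LOXL3.

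**Figure D3:**
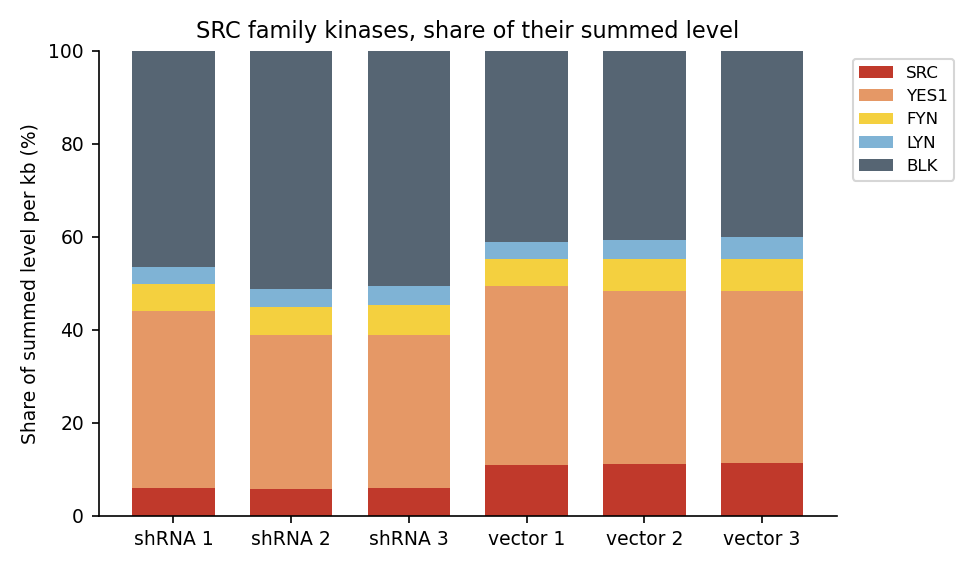
Share of each SRC family kinase in their summed level per kb of transcript, in percent, for the 3 libraries labelled SRMS shRNA (left) and the 3 vector libraries (right). SRC takes 5.72% to 5.89% in the libraries labelled SRMS shRNA and 10.9% to 11.4% in the vector libraries, and BLK and YES1 make up most of the rest. Reads counted for BLK may include those of the antisense gene AC022239.1.

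Set per kb of 1 chosen transcript, BCAR1 and CSK had the highest levels of the 10 genes and SRMS the lowest in both groups. In the libraries labelled SRMS shRNA the levels in scaled reads per kb were 42.1 ± 3.77 for BCAR1, 31.5 ± 0.727 for CSK, 23.4 ± 1.06 for BLK, 16.5 ± 1.73 for YES1 and 10.2 ± 0.612 for PTK2 (SD, n = 3). Below them came DOK1 at 3.03 ± 0.281, FYN at 2.85 ± 0.111, SRC at 2.76 ± 0.07, LYN at 1.81 ± 0.0468 and SRMS at 0.498 ± 0.253. The ranges of DOK1 and FYN, and of FYN and SRC, overlapped, and the other neighbours in this order did not.

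In the vector libraries the levels in scaled reads per kb were 57.6 ± 4.24 for BCAR1, 37.9 ± 1.59 for CSK, 19.9 ± 0.806 for BLK, 18.4 ± 0.92 for YES1, 9.0 ± 0.312 for PTK2 and 5.44 ± 0.0729 for SRC. Then followed FYN at 3.14 ± 0.248, DOK1 at 2.17 ± 0.142, LYN at 2.0 ± 0.177 and SRMS at 0.262 ± 0.254. BLK and YES1, and DOK1 and LYN, overlapped. SRC stood 8th in the libraries labelled SRMS shRNA and 6th in the vector libraries. Per kb of coding sequence, 4 of 10 genes in each group kept their rank, CSK stood above BCAR1 and YES1 above BLK, so the order of neighbours depends on the length used.

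Ratios within a library do not depend on its scaling, but the sizes of those below depend on the transcript lengths used. The summed level of SRC, YES1, FYN, LYN and BLK was 45.9 to 48.3 scaled reads per kb in the libraries labelled SRMS shRNA and 47.8 to 50.5 in the vector libraries, and these ranges overlapped. BLK made up 46.6% to 51.3% of that sum in the libraries labelled SRMS shRNA and 40.2% to 41.2% in the vector libraries. Reads counted for BLK may include those of the antisense gene AC022239.1. That limit holds for its share, for the sum and for the ratio of CSK to the sum. YES1, at 33.1% to 38.2% and 37.0% to 38.6%, overlapped. Per kb of coding sequence YES1 stood above BLK, at 47.0 against 40.3 scaled reads per kb in the libraries labelled SRMS shRNA. In the vector libraries it was 52.4 against 34.3, so which of them made up more depends on the length used. The level per kb of CSK was 11.2 to 11.7 times that of SRC in the libraries labelled SRMS shRNA and 6.81 to 7.19 times in the vector libraries. Against the summed level of its 5 substrate kinases, CSK stood at 0.64 to 0.69 in the libraries labelled SRMS shRNA and 0.754 to 0.785 in the vector libraries. BCAR1 stood at 3.46 to 4.58 times PTK2 in the libraries labelled SRMS shRNA and 5.67 to 6.92 times in the vector libraries. For each of these last 3 ratios the groups did not overlap, and no test was made of them.

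Other genes of the pathway were counted by role, beside the 56.8% of all genes called. Their lists, too, were chosen with earlier results of these data known, so the counts are descriptive only. Among 13 measured regulators of SRC kinases (of 15 listed), 2 rose and 7 fell, with a median log2 fold change of -0.23. PTPN1, the phosphatase PTP1B that can activate SRC by removing its tail phosphate, had 53.4 ± 2.5 scaled reads in the libraries labelled SRMS shRNA and 72.0 ± 0.647 in the vector libraries (SD, n = 3 each; log2 fold change -0.43, limma adjusted p = 2.26e-05). PTPRF, a receptor phosphatase, had -0.45 (limma adjusted p = 6.67e-06) and CBL, a ubiquitin ligase for active tyrosine kinases, -0.80 (limma adjusted p = 6.87e-05). PTPN6, the phosphatase SHP-1 known from blood cells, rose to 2.52 ± 0.443 scaled reads in the libraries labelled SRMS shRNA, against 1.04 ± 0.243 in the vector libraries. With median scaling 3 were higher and 6 lower.

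Among 9 measured DOK relatives and RAS adaptors (of 12 listed), 4 rose and 2 fell, with a median of 0.13. DOK3 and DOK2, relatives of DOK1 best known in blood cells, had log2 fold changes of 0.60 (limma adjusted p = 2.65e-05) and 0.51 (limma adjusted p = 0.00758), and RASA1, the RAS GTPase-activating protein that binds DOK1, 0.13 (limma adjusted p = 0.00956). NCK1, an SH2 and SH3 adaptor, fell to 7.96 ± 0.754 scaled reads in the libraries labelled SRMS shRNA, against 14.0 ± 0.694 in the vector libraries. With median scaling 5 were higher and 1 lower, with the replicates 2 and 3 averaged 3 were called, and with the block and the length and GC trend removed 4 were higher and 4 lower.

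Among 23 measured partners of PTK2 and BCAR1 at adhesions (of 24 listed), 4 rose and 14 fell, with a median of -0.20. BCAR3, which binds BCAR1, fell to 17.5 ± 0.338 scaled reads in the libraries labelled SRMS shRNA, against 46.8 ± 2.02 in the vector libraries (SD, n = 3 each; log2 fold change -1.39, limma adjusted p = 6.19e-08). GIT1, an adhesion scaffold that binds PTK2 and paxillin, fell to 42.8 ± 0.789 scaled reads, against 110.8 ± 4.71 in the vector libraries (log2 fold change -1.36, limma adjusted p = 2.57e-08). TNS3, a tensin, had -1.16 (limma adjusted p = 2.02e-06) and the fibronectin receptor subunit ITGA5 -0.55 (limma adjusted p = 9.05e-07). With median scaling 7 were higher and 10 lower, where 44.6% and 17.9% of all genes were. With the block and the length and GC trend removed it was 8 and 12, where 28.6% and 32.6% of all genes were called.

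Among 18 substrates of SRC and BRK kinases, 1 rose and 13 fell, with a median of -0.39. PIK3R1, the regulatory subunit of phosphoinositide 3-kinase, fell to 5.11 ± 0.467 scaled reads in the libraries labelled SRMS shRNA, against 11.7 ± 0.435 in the vector libraries (SD, n = 3 each; log2 fold change -1.12, limma adjusted p = 3.88e-06). AFAP1, an actin-filament protein that binds SRC, had -0.67, ARHGAP35, a GTPase-activating protein, -0.65, and WASL, an activator of actin branching, -0.55 (limma adjusted p = 1.3e-05, 1.3e-05 and 1.98e-05). With median scaling 3 were higher and 11 lower.

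Among 11 receptor tyrosine kinases that signal through SRC, 3 rose and 6 fell, with a median of -0.14. MET, the hepatocyte growth factor receptor, fell to 85.3 ± 6.87 scaled reads in the libraries labelled SRMS shRNA, against 159.0 ± 3.98 in the vector libraries (SD, n = 3 each; log2 fold change -0.90, limma adjusted p = 9.38e-07). EPHB4 had -0.62 (limma adjusted p = 1.56e-06), EGFR, the epidermal growth factor receptor, -0.55 (limma adjusted p = 1.04e-05) and EPHA2 -0.52 (limma adjusted p = 9.19e-07). The median was 0.02 with median scaling, with 3 higher and 4 lower.

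**Figure D4:**
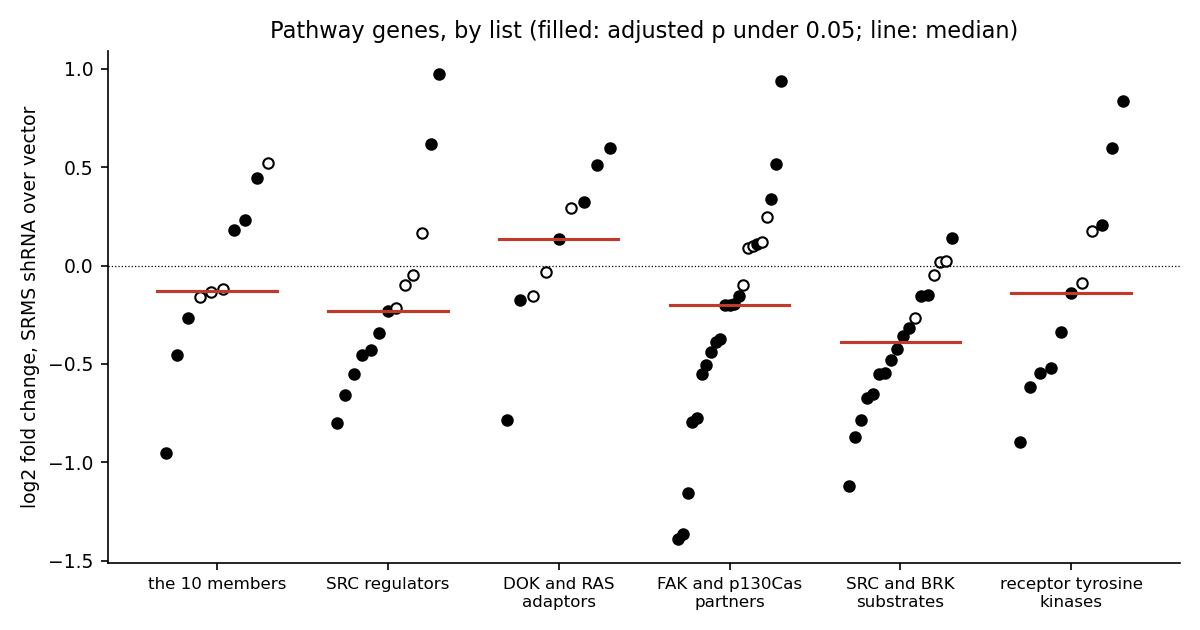
log2 fold change of every measured gene in the 10 named genes and 5 pathway lists, libraries labelled SRMS shRNA over vector, each list ordered from low to high, with filled points for an adjusted p under 0.05 and a red line at the median. The adhesion partners reach lowest, at -1.39 for BCAR3, and among the substrates 13 of 18 lie below 0 as filled points.

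**Figure D5:**
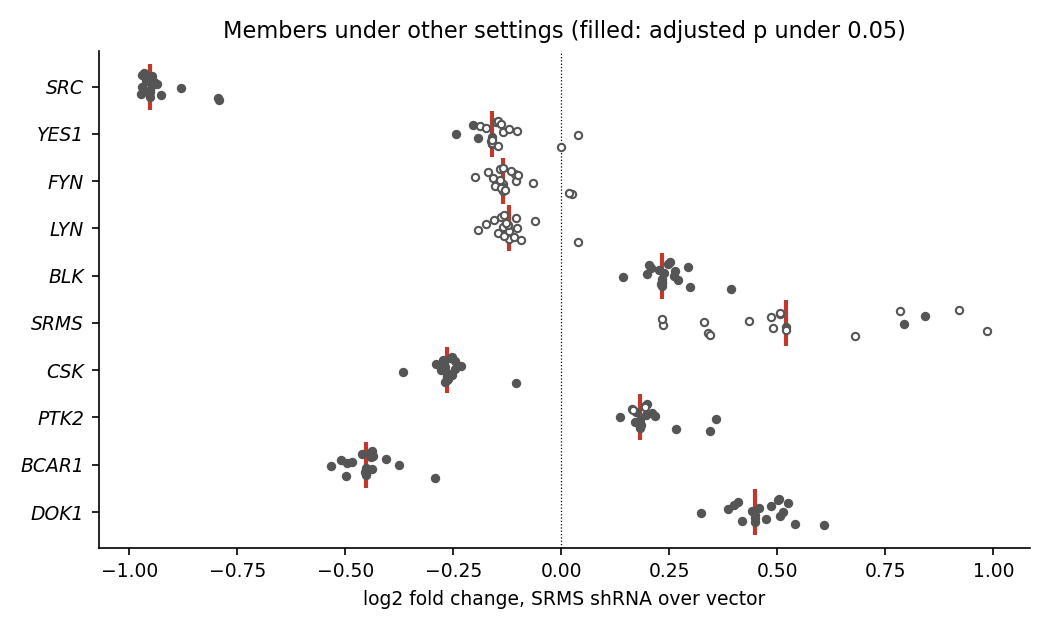
log2 fold change of each of the 10 genes, libraries labelled SRMS shRNA over vector, under each other setting (points, filled for an adjusted p under 0.05) and as reported (red bar). SRC, BCAR1, CSK, BLK and DOK1 keep filled points on 1 side of 0, PTK2 has 2 open points, and YES1, FYN and LYN reach 0.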

How the data were processed

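Poly(A) RNA of ES-2 cells was sequenced, and FastQC, cutadapt, HISAT2, StringTie, edgeR and build GRCh38 are named in the submitters' processing notes. The sources used here state no version, setting, strand option or low-expression filter. The authors' deposited values are a linear signal, although named log CPM: reads divided by an effective library size. Whole reads were recovered from the step that 1 read makes, within 0.1 for at least 99.99% of values.

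Of 14042 rows, the 13 Y copies of pseudoautosomal genes were left out, and 14007 of 14029 genes had a symbol. Loci and lengths come from GENCODE release 29, with 1 coding, principal, longest transcript per gene. limma 3.58.1 (R 4.3.3) with a trend tested log2(value + 0.5), the 3 libraries labelled SRMS shRNA against the 3 vector libraries, with Benjamini-Hochberg adjustment. edgeR 4.0.16 quasi-likelihood and DESeq2 1.42.0 ran on recovered reads, where edgeR called 8058 genes and DESeq2 7375. Members and lists were chosen with earlier results of these data known. Each member was named, and from each list up to 4 called genes of smallest adjusted p, plus each measured kinase of the SRC and BRK families.

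The deviations of same-numbered libraries from their group means correlated (r = 0.309, 0.106 and 0.12 across all genes). Each was over 0.1, the limit for treating the numbers as pairs, although replicates 2 and 3 also correlated crosswise (0.113 and 0.114). Deviations within a group cancel out, so a deviation shared by replicate 1 alone raises these values too. The numbers of replicates 2 and 3 are thus not shown to be pairs. The calls reported come from the fit without pairs, and the fit with the replicate number as a block is an alternative. Between replicates 2 and 3 chi-square per gene was 1.63 (SRMS shRNA) and 1.78 (vector), against 3.37 to 4.66 with replicate 1, so each library was kept, with replicates 2 and 3 averaged as an alternative. Read-count limits cover counting error only.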

Additional observations from a re-analysis of the deposited data

How the results depend on the processing

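SRC, BCAR1, CSK, BLK and DOK1 kept their direction and passed in each of the 19 other settings, and PTK2 in 17 of them. The log2 fold change of YES1 turned to 0.039 with the replicate block and the length and GC trend removed, that of FYN to 0.025 and 0.017 with median and quantile scaling, and that of LYN to 0.039 with median scaling; the cause was not tested. The log2 fold change of SRMS passed, toward more SRMS, with the replicate block (0.52, limma adjusted p = 0.00782) and without replicate 1 of both groups (0.51, limma adjusted p = 0.0331). It did not pass with the block and the length and GC trend removed (0.24, limma adjusted p = 0.207) or with replicates 2 and 3 averaged (0.51, limma adjusted p = 0.251). It ran from 0.23 to 0.84 with single libraries left out, and at the mean filter it had no value. With pseudocounts of 1 and 0.1 it was 0.34 and 0.99, with edgeR 0.78 and with DESeq2 0.92, and it passed in none of these. Apart from SRMS and YES1, the replicate block changed no call among the 10 genes.

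Requiring also an absolute log2 fold change of 0.5 left 2394 of the 7969 genes called and 1 of the 6 members (SRC), by construction. Likewise it left 5 of 9 regulators, 3 of 6 adaptors, 9 of 18 adhesion partners, 7 of 14 substrates and 6 of 9 receptors. With replicates 2 and 3 averaged 3 of 6 adaptors were called, from fewer samples. Coding length kept 4 of 10 ranks in each group. With single libraries left out, 6895 to 8324 genes, 6 to 8 members, 8 to 11 regulators, 4 to 6 adaptors, 15 to 18 adhesion partners, 13 to 14 substrates and 8 to 9 receptors were called. Depth limits SRMS, with 2 to 47 reads, and PTK6.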

Other observations

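Replicate 1 stood at the same end of both groups for 8 of the 10 genes. It was the highest of each group for SRC, YES1, CSK and PTK2 and the lowest of each for SRMS, FYN, LYN and BCAR1. This was noticed after the values were seen, the labels do not say what a replicate number shares, and its cause was not tested. The share of all genes with this pattern was not counted. Across all genes the deviations of replicate 1 from the group mean correlated between the groups (r = 0.309). The pattern is therefore not shown to be particular to the 10 genes.

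The spread between replicates relative to read counting also differed among the 10 genes. For BCAR1 the coefficient of variation was 8.96% in the libraries labelled SRMS shRNA and 7.37% in the vector libraries, where counting gives 1.52% and 1.1%. For SRMS it was 50.8% and 96.8%, where counting gives 20.0% and 21.8%.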
